A study of Homo sapiens with 4 samples.

Results

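The SNAIL, TWIST and ZEB factors are the transcription factors most often used to read a mesenchymal transition. They were taken from the FPKM table by their symbols, SNAI1, SNAI2, TWIST1, TWIST2, ZEB1 and ZEB2. Each symbol had 1 row, so that 6 of the 58365 rows of the table are described. FPKM divides the fragments of a gene by its transcript length and by the depth of the library. This makes levels roughly comparable between genes and libraries, but differences that ran with GC content remained, as given below.

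SNAIL proteins (SNAI1 and SNAI2, the latter also called SLUG) carry zinc fingers, bind short E-box elements in DNA and mostly repress transcription. TWIST1 and TWIST2 are basic helix-loop-helix factors that pair with E proteins, and ZEB1 and ZEB2 carry zinc finger clusters that also bind E-boxes. TGFβ acts through type I and type II receptors and SMAD2/3, and SNAI1, SNAI2 and ZEB genes are known to respond to it in epithelial cells, where they repress CDH1, the gene of the adhesion protein E-cadherin. In endothelium the same factors are linked to the endothelial-to-mesenchymal transition, while ZEB2 is also needed for normal blood cell development.

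The question was whether these factors were lower when TGFβ receptors were blocked. H1, a widely used line of human embryonic stem cells (hESCs), was differentiated stepwise towards blood: activin A and BMP4 came in the opening 2 days, then VEGF and bFGF. VEGF and bFGF continued in the last 3 days, with SB431542, a small-molecule inhibitor of TGFβ type I receptors, for the SB group and without it for the DMSO group, and RNA was taken at day 8. There were 2 DMSO and 2 SB libraries, all from H1. The study describes sequencing CD31-positive cells, a step that the labels do not mention. No source says that the 2 libraries of a group came from separate cultures, so p-values measure only the spread between these libraries, which may be technical.

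The libraries held between 19683500 and 25991600 fragments, as recovered from the steps in the FPKM of genes with 1 transcript. Endothelial markers were present in each library: all 20 listed reached 1 FPKM, and PECAM1, which encodes CD31, stood between 153 and 197 FPKM. Of 30 hematopoietic markers 28 were tested, but PTPRC, the gene of the leukocyte antigen CD45, stayed at or below 0.202 FPKM. Libraries with the same replicate number resembled each other, so differences within each number are given beside the pooled ones. With limma, 20 of 14909 tested genes (0.134%) differed between SB and DMSO at an adjusted p under 0.05. Tested genes had a mean of at least 1 FPKM in 1 group or both.

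**Figure D1:**
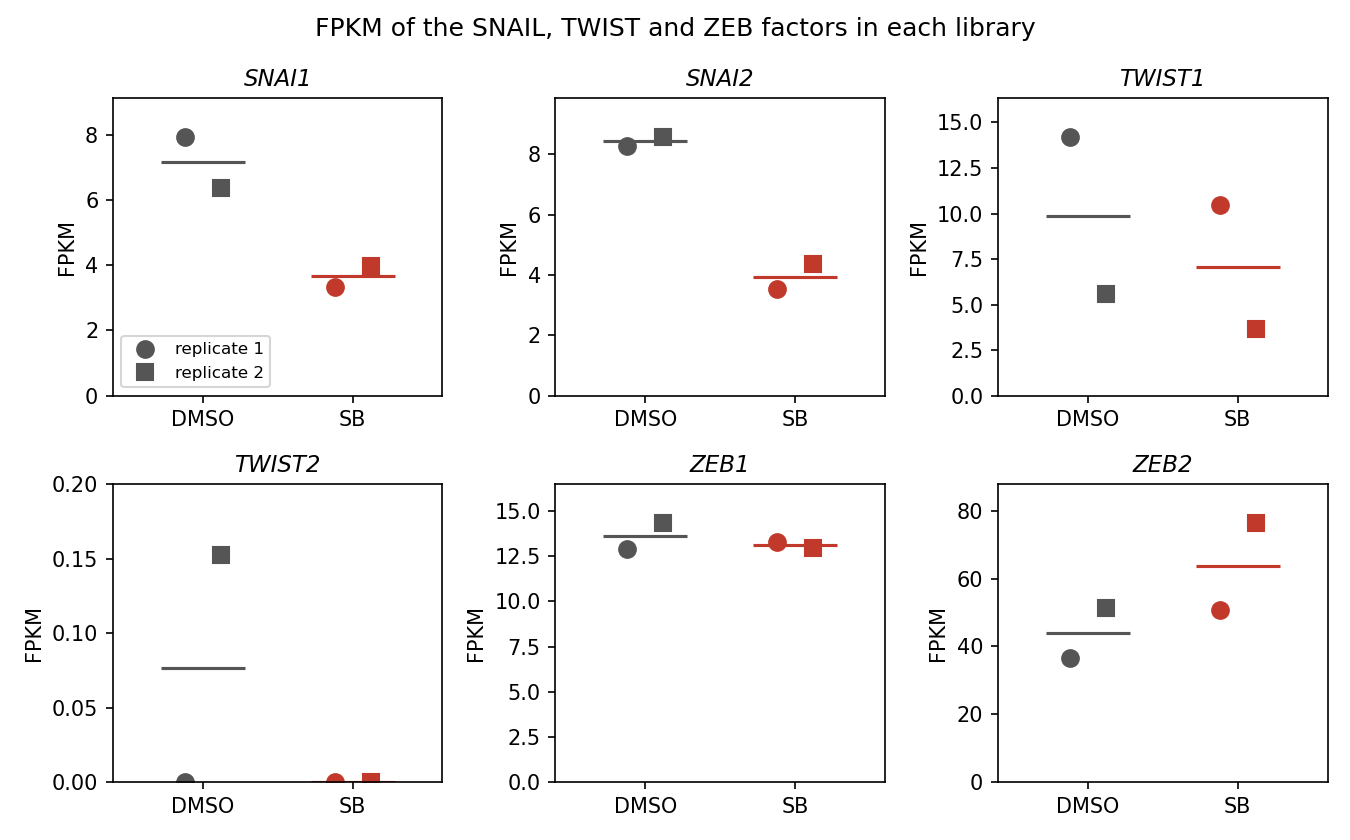
FPKM of the 6 factors (vertical axes, linear and each with its own range) in the DMSO and SB libraries; circles are replicate 1, squares are replicate 2 and lines are group means (n = 2). SNAI1 and SNAI2 were separated by group, with all DMSO values above all SB values, whereas TWIST1 and ZEB2 were spread by replicate number, and TWIST2 was listed at 0 in 3 libraries.

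SNAI1 and SNAI2 were lower with SB431542, ZEB2 was higher, TWIST1 differed more between replicate numbers than between groups, and ZEB1 was close to equal. None of the 5 tested factors passed the adjusted threshold with limma, against 0.134% of all tested genes (0.107% lower and 0.0268% higher). At an unadjusted p under 0.05 there were 2 of 5, both lower, against 9.96% of tested genes in either direction, 5.16% lower and 4.8% higher. That count was 1 without DMSO replicate 1 (SNAI2) and 0 without SB replicate 1. SB and DMSO values did not overlap in 2 of 5, both lower with SB, where 37.5% of tested genes did not overlap, 16% lower and 21.5% higher. Within both replicate numbers 3 of 5 were lower and 1 was higher, against 30.6% and 40.9% of tested genes. The median log2 fold change of the 5 was -0.45, beside 0.04 over all tested genes. RNA was pooled over many cells, and fewer cells of a type cannot be told apart from less RNA per cell.

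SNAI1 (ENSG00000124216.3, chromosome 20, 49982999 to 49988886, plus strand) encodes a SNAIL repressor whose protein is short-lived. Its level was 7.94 FPKM in DMSO replicate 1 and 6.39 FPKM in DMSO replicate 2. With SB431542 it was 3.34 FPKM in replicate 1 and 3.98 FPKM in replicate 2. Both SB libraries thus lay below both DMSO libraries. The means were 7.16 ± 1.10 FPKM in DMSO and 3.66 ± 0.454 FPKM in SB (SD, n = 2 each), so that SB stood at 51.1% of DMSO. On the log2(FPKM + 1) scale, which understates differences of low genes, the fold change was -0.81 (SE 0.20, 95% interval -1.32 to -0.29). The limma p was 0.0102 unadjusted and 0.288 after adjustment over all tested genes. Within replicate 1 the log2 fold change was -1.04 and within replicate 2 it was -0.57.

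SNAI1 has 1 annotated transcript, so its FPKM could be turned back into whole fragments. These were 272 and 210 fragments in the DMSO libraries and 92 and 145 fragments in the SB libraries. Poisson 95% intervals, which cover counting error only, ran from 241 to 306 and from 183 to 240 in DMSO, and from 74.2 to 113 and from 122 to 171 in SB. The intervals of the SB libraries lay below those of the DMSO libraries. The shallowest library, SB replicate 1, also held the fewest SNAI1 fragments, and FPKM divides by that depth.

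SNAI2 (ENSG00000019549.9, chromosome 8, 48917768 to 48921740, minus strand), the SNAIL factor best known from neural crest and mesenchyme, was measured at 8.27 FPKM in DMSO replicate 1 and 8.58 FPKM in DMSO replicate 2. The SB libraries gave 3.52 FPKM in replicate 1 and 4.36 FPKM in replicate 2. The DMSO values lay close together and far above both SB values. The group means were 8.43 ± 0.214 and 3.94 ± 0.595 FPKM (SD, n = 2 each), with SB at 46.8% of DMSO. The log2 fold change was -0.94 (SE 0.18, 95% interval -1.41 to -0.47), with a limma p of 0.00389 and an adjusted p of 0.208. It was -1.04 within replicate 1 and -0.84 within replicate 2, so that SNAI2 gave the more even difference of the SNAIL pair.

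Together the SNAIL genes reached 16.2 and 14.96 FPKM in the DMSO libraries and 6.86 and 8.34 FPKM in the SB libraries. The balance within the pair differed less, since SNAI2 over SNAI1 was 1.04 and 1.34 in DMSO and 1.05 and 1.10 in SB. The pair made up 20.3% and 17.3% of the summed FPKM of the 6 factors in DMSO and 8.42% and 8.23% in SB. Markers of mesenchymal stromal cells were lower in the same libraries: the 15 listed markers, of which none was at 0 in all libraries, summed to between 817 and 861 FPKM in DMSO and between 461 and 533 FPKM in SB. Of the 11 tested, 9 were lower without overlap and 1 was higher without overlap, against 16% and 21.5% of all tested genes. The 16 endoderm markers summed to between 376 and 399 FPKM in DMSO and between 66.6 and 103 FPKM in SB. The 8 neural crest markers, with FOXD3 at 0 throughout and SOX10 at or below 0.191 FPKM, summed to between 16.8 and 30.6 FPKM in DMSO and between 6.20 and 8.70 FPKM in SB. Most of the DMSO sum was NGFR, at 22.3 and 9.70 FPKM there and at 3.04 and 1.09 FPKM in SB. Of the 3 tested, 2 were lower without overlap (NGFR and ERBB3), against 16% of all tested genes. TFAP2A, also tested, had a log2 fold change of -0.01. The study describes sequencing CD31-positive cells, which the labels do not mention. What part stromal, endoderm or neural crest cells had in the SNAIL values was not tested.

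TWIST1 (ENSG00000122691.12, chromosome 7, 19020991 to 19117672, minus strand), a factor of cranial mesenchyme and mesoderm, was the tested member with the largest standard error on the log2 scale. It was measured at 14.2 FPKM in DMSO replicate 1 and at 5.57 FPKM in DMSO replicate 2. In the SB libraries it was 10.5 FPKM in replicate 1 and 3.68 FPKM in replicate 2. Both libraries of replicate 1 were high and both of replicate 2 were low, and the groups overlapped. The means were 9.89 ± 6.11 FPKM in DMSO and 7.08 ± 4.81 FPKM in SB (SD, n = 2 each). The log2 fold change of -0.45 (SE 0.59, 95% interval -1.99 to 1.09) did not pass the test (limma p 0.485, adjusted p 0.908). Within numbers it was -0.41 and -0.49. Its sign varied when a single library was left out. Leaving out DMSO replicate 1 gave 0.16 and leaving out SB replicate 2 gave 0.20. Leaving out DMSO replicate 2 gave -1.05 and leaving out SB replicate 1 gave -1.09. Such fits set unequal replicate numbers against each other, so they mix the group difference with that between numbers.

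The difference of TWIST1 between replicate 1 and replicate 2 was 1.21 in DMSO and 1.29 in SB, as log2(FPKM + 1). Among the 14909 tested genes, 97 (0.651%) were at least as far apart in this direction in both groups. The difference between replicate numbers ran with the GC content of transcripts over the whole table. In the tenth of genes with the lowest GC content its median was -0.36 in DMSO and -0.25 in SB, and in the tenth with the highest it was 0.59 and 0.46. TWIST1 transcripts have a mean GC content of 56.5%, and genes within 1 percentage point of that had medians of 0.17 and 0.15. ZEB2, at 45.4% GC, went the other way, with -0.48 in DMSO and -0.58 in SB, where genes of like GC content had medians of -0.24 and -0.17. With a correction for GC content, added after seeing the data, the log2 fold change between SB and DMSO was -0.43 for TWIST1 and 0.49 for ZEB2. AC003986.2 overlaps TWIST1 on the other strand, and the library kit named in the labels does not mark strand.

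**Figure D2:**
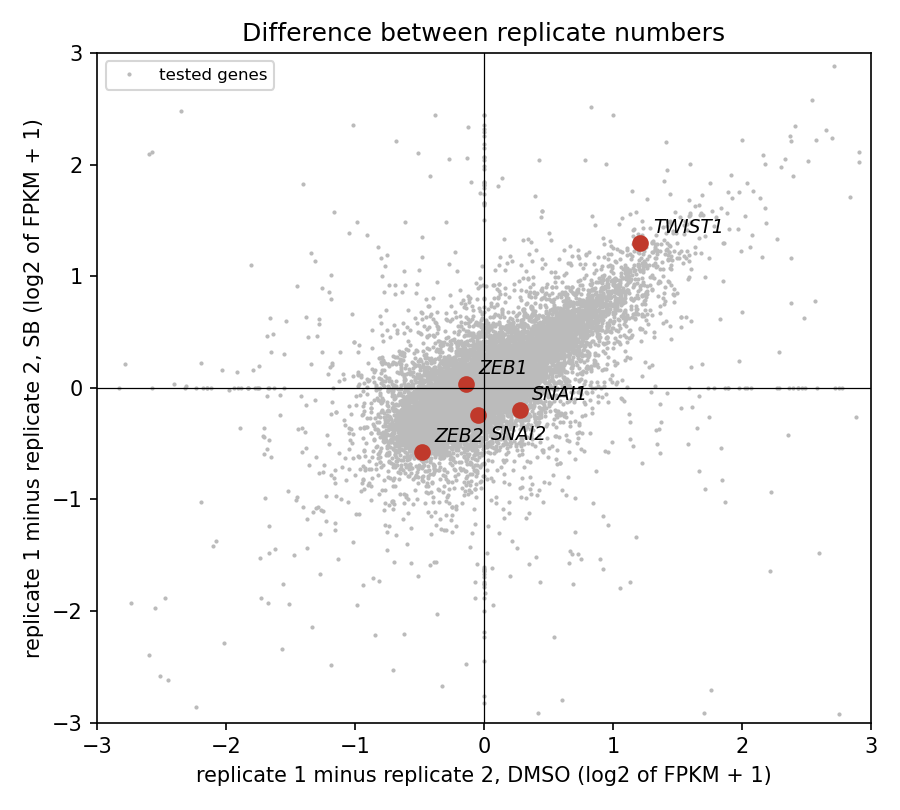
Difference between replicate 1 and replicate 2, in log2(FPKM + 1), in DMSO (horizontal) and in SB (vertical) for the 14909 tested genes (grey), of which 82 lie beyond the axes at 3, and for the 5 tested factors (red). TWIST1 lies far up the diagonal at 1.21 and 1.29, ZEB2 lies at -0.48 and -0.58, and SNAI1, SNAI2 and ZEB1 lie nearer to 0.

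TWIST2 (ENSG00000233608.3, chromosome 2, 238848032 to 238910543, plus strand), which in mice acts in the dermis, was listed at 0 in DMSO replicate 1 and in both SB libraries and at 0.152 FPKM in DMSO replicate 2. It was therefore not tested, and no fold change is given.

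ZEB1 (ENSG00000148516.21, chromosome 10, 31318495 to 31529814, plus strand) was measured at 12.9 and 14.3 FPKM in DMSO replicates 1 and 2. The SB libraries gave 13.3 and 13.0 FPKM. The SB values lay between the DMSO values, with means of 13.6 ± 1.01 and 13.1 ± 0.210 FPKM (SD, n = 2 each). The log2 fold change was -0.05 (SE 0.16, limma p 0.781, adjusted p 0.974). Its 95% interval, from -0.47 to 0.37, did not include the estimate for SNAI1 or SNAI2. It did overlap the interval of SNAI1 (-1.32 to -0.29), and the difference between these genes was not tested. Within numbers it was 0.04 and -0.13, and leaving out DMSO replicate 2 gave 0.023. The antisense gene ZEB1-AS1 overlaps ZEB1 and stood at 16.9 and 5.93 FPKM in DMSO and 10.02 and 5.63 FPKM in SB. Without strand, reads from the overlap cannot be told apart.

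ZEB2 (ENSG00000169554.18, chromosome 2, 144364364 to 144524583, minus strand) was the most abundant of the 6. Its level was 36.5 FPKM in DMSO replicate 1 and 51.4 FPKM in DMSO replicate 2, against 50.9 FPKM in SB replicate 1 and 76.4 FPKM in SB replicate 2. The highest DMSO value lay just above the lowest SB value, so the groups overlapped, although SB was higher within each number. The means were 43.9 ± 10.5 and 63.6 ± 18.03 FPKM (SD, n = 2 each), with SB at 145% of DMSO. The log2 fold change was 0.52 (SE 0.29, 95% interval -0.23 to 1.26, limma p 0.133, adjusted p 0.694). It was 0.47 within replicate 1 and 0.56 within replicate 2. Single libraries moved it by more than 1.5 times, to 0.27 without DMSO replicate 1 and to 0.23 without SB replicate 2, and to 0.80 without SB replicate 1. For ZEB2, too, these fits mix the group difference with that between replicate numbers. ZEB2-AS1, which overlaps ZEB2 on the other strand, stood at 1.14 and 1.53 FPKM in DMSO and at 1.90 and 1.78 FPKM in SB, far below ZEB2 itself.

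The ratio of ZEB2 to ZEB1, taken within each library, was 2.82 and 3.58 in DMSO and 3.83 and 5.88 in SB. Both SB ratios were above both DMSO ratios. ZEB2 made up 45.7% and 59.5% of the summed FPKM of the 6 factors in DMSO and 62.4% and 75.3% in SB. Hematopoietic markers were higher in the same libraries. The 30 listed markers, none at 0 in all libraries, summed to between 2216 and 2522 FPKM in DMSO and between 2626 and 2966 FPKM in SB. Of the 28 tested, 21 were higher without overlap and 3 were lower without overlap, against 21.5% and 16% of all tested genes. The transcription factor gene RUNX1 was measured at 35.3 and 33.6 FPKM in DMSO and at 69.8 and 53.6 FPKM in SB. CSF1R, the receptor gene of the macrophage lineage, was measured at 2.77 and 1.83 FPKM in DMSO and at 14.4 and 12.5 FPKM in SB. The part of blood cells in the ZEB2 values was not tested.

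**Figure D3:**
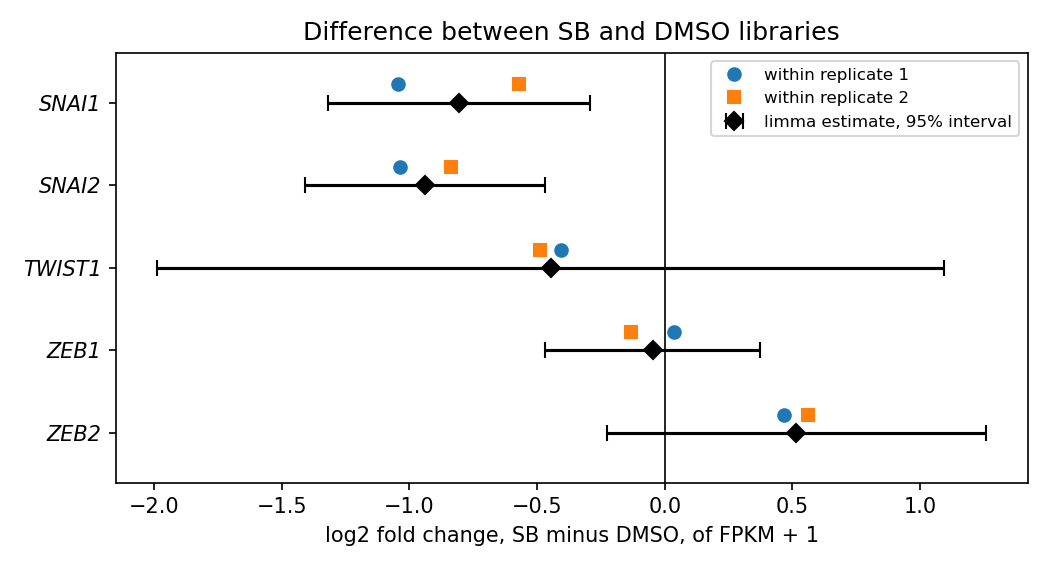
Log2 fold change of FPKM + 1 between SB and DMSO (horizontal) for the 5 tested factors: diamonds are the limma estimates with 95% intervals (n = 2 per group), circles and squares are the differences within replicate 1 and replicate 2. The intervals of SNAI1 and SNAI2 lie below 0, unadjusted for the number of genes, while that of TWIST1 runs from -1.99 to 1.09, that of ZEB1 is centred near 0 and that of ZEB2 is centred on 0.52 and includes 0.

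Ordered by their mean level over the 4 libraries, ZEB2 (53.8 FPKM) came before ZEB1 (13.4 FPKM), TWIST1 (8.49 FPKM), SNAI2 (6.18 FPKM), SNAI1 (5.41 FPKM) and TWIST2 (0.0381 FPKM). Only ZEB2 and ZEB1, and SNAI1 and TWIST2, were neighbours whose ranges did not overlap. ZEB1 exceeded TWIST1 in 3 of 4 libraries, TWIST1 exceeded SNAI2 in 2, and SNAI2 exceeded SNAI1 in all 4. Among tested genes the mean level of ZEB2 lay at percentile 87.8, whereas SNAI1 lay at percentile 34.7 and SNAI2 at percentile 37.6.

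The genes whose pattern over the 4 libraries was most like that of each factor were found by the root mean square difference of mean-centred log2(FPKM + 1). For SNAI1 they were TRIM17 (0.0215), SLC12A4 (0.0417) and PDZRN3 (0.0462). For SNAI2 they were SCD5 (0.0180), ENPP1 (0.0243) and TCEAL2 (0.0271). TWIST1 was followed most closely by MARK4 (0.0473), SCNN1D (0.0698) and AGRN (0.0706), all high in replicate 1 and low in replicate 2. ZEB1 was matched by PHKA2 (0.00336), HABP4 (0.0104) and RPAP3 (0.0123), and ZEB2 by BLM (0.00962), AL391834.2 (0.0175) and NDC1 (0.0363). With 4 libraries such likeness is a description of these values only.

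The partners and relatives of the factors were also examined. Of the genes for ID proteins, which hold E proteins away from TWIST factors, ID1, ID2 and ID3 had lower values with SB431542, and none passed the adjustment. ID1 was measured at 470.2 and 505 FPKM in DMSO and at 179 and 187 FPKM in SB, with a log2 fold change of -1.41 and a limma adjusted p of 0.0803. ID2 was measured at 110.2 and 88.6 FPKM in DMSO and at 55.4 and 54.7 FPKM in SB, and ID3 at 135 and 148 FPKM in DMSO and at 77.6 and 75.8 FPKM in SB. The DMSO and SB values of these 3 did not overlap, whereas those of ID4 did (12.4 and 5.36 FPKM in DMSO, 8.44 and 4.46 FPKM in SB, limma p 0.466). Over all tested genes, 16% were lower and 21.5% higher without overlap. Of the E proteins, TCF3 followed the replicate numbers as TWIST1 did, with 300.2 and 106 FPKM in DMSO and 252 and 112 FPKM in SB, and TCF12 had a log2 fold change of 0.04. Of the 7 E protein and ID genes none passed the adjustment, and their median log2 fold change was -0.36. At an unadjusted p under 0.05, 3 were lower and none was higher, against 5.16% and 4.8% of all tested genes.

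Among relatives of SNAIL and TWIST, 5 of 10 were tested and none passed the adjustment. HAND1, a basic helix-loop-helix factor of heart and extraembryonic mesoderm, was measured at 11.6 and 11.1 FPKM in DMSO and at 2.34 and 1.98 FPKM in SB (log2 fold change -1.97, limma adjusted p 0.0646). Its paralog HAND2 was measured at 12.3 and 11.2 FPKM in DMSO and at 11.03 and 10.1 FPKM in SB. SNAI3, the remaining SNAIL gene, was measured at 5.54 and 3.06 FPKM in DMSO and at 3.44 and 2.25 FPKM in SB, and these groups overlapped. The median log2 fold change of the 5 was -0.44.

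Other transcription factors linked to mesenchymal transitions were 20 in number, of which 16 were tested and none passed. At an unadjusted p under 0.05, 6 were lower (3 without SB replicate 2) and none was higher. Over all tested genes the shares at that p were 5.16% lower and 4.8% higher. The median log2 fold change of the 16 was -0.30. FOXC2, a forkhead factor of vascular mesenchyme and lymphatics, was measured at 6.08 and 4.06 FPKM in DMSO and at 0.904 and 0.474 FPKM in SB (log2 fold change -1.84, limma adjusted p 0.135). PRRX1 was measured at 1.37 and 1.32 FPKM in DMSO and at 0.221 and 0.307 FPKM in SB, and SOX9 at 1.54 and 1.10 FPKM in DMSO and at 0.445 and 0.390 FPKM in SB. In each of these the groups did not overlap. Of the 16 tested, 9 were lower without overlap and 1 was higher, against 16% and 21.5% of all tested genes.

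The 30 genes for corepressors and for enzymes that set the stability of SNAIL proteins were all tested, and their median log2 fold change was 0.12. None passed the adjustment, and at an unadjusted p under 0.05, 1 was lower (0 without DMSO replicate 2, SB replicate 1 or SB replicate 2) and none was higher, with 6 lower and 7 higher without overlap. The counts without overlap were near the shares over all tested genes, 16% lower and 21.5% higher. At an unadjusted p under 0.05, 5.16% of all tested genes were lower and 4.8% higher. The gene lower at that p was AJUBA, a LIM protein that binds SNAIL repressors. It was measured at 4.09 and 4.76 FPKM in DMSO and at 2.24 and 2.28 FPKM in SB. The demethylase gene KDM1A, whose product binds the end of SNAIL proteins, had a log2 fold change of -0.03.

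Genes that the factors are known to repress were not higher where SNAI1 and SNAI2 were lower. In the same libraries ZEB2, also one of these factors, was higher within both replicate numbers (SB at 145% of DMSO, with groups overlapping). What part any factor had in the values of these genes was not tested. CDH1 was measured at 2.42 and 2.71 FPKM in DMSO and at 1.38 and 0.929 FPKM in SB, without overlap (log2 fold change -0.73, limma p 0.0217, adjusted p 0.381). Of 26 epithelial genes 19 were tested and none passed the adjustment. At an unadjusted p under 0.05, 11 were lower (6 without SB replicate 2) and none was higher, and 15 were lower without overlap and none higher, with a median log2 fold change of -0.70. Of all tested genes, 5.16% were lower and 4.8% higher at that p, and 16% were lower and 21.5% higher without overlap. The keratin gene KRT19 was measured at 48.0 and 36.7 FPKM in DMSO and at 10.6 and 8.14 FPKM in SB. EPCAM, an epithelial adhesion gene that was also on the endoderm list, was measured at 8.09 and 11.1 FPKM in DMSO and at 2.59 and 3.39 FPKM in SB. The endoderm markers, whose sums are given above, were lower in the same libraries. The part of endoderm cells in the epithelial values was not tested. Of 14 factors that guard the epithelial state 2 were tested, ESRP1 (log2 fold change -0.61) and KLF5 (-0.32), and neither passed. OVOL1, OVOL2 and GRHL2, known opponents of ZEB1, were at or below 0.676 FPKM in each library.

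To show the element that SNAIL and ZEB proteins bind, promoters were searched for the E-box CAGGTG on both strands (CACCTG on the strand printed). The search covered the 250 bases before each start site of RefSeq transcripts, on the build GRCh38.p14. Of 35116 such windows 6143 (17.5%) held the element, 887 (2.53%) held 2 or more and 43 (0.122%) held 4 or more. Of 26 epithelial genes 15 had an entry in that table, with 20 windows, and 11 of these windows, from 9 genes, held the element. Of 30 windows of 21 mesenchymal genes, 4 windows of 3 genes held it. Windows of MUC1 on the epithelial list overlapped and held the same E-boxes, as did some of LOX on the mesenchymal list. Windows are therefore not independent, and CDH1 had no entry. CRB3, a polarity gene, and CLDN7, a tight junction gene, are printed because they held the most in 1 window, and E-boxes are in capitals. The CRB3 window (chr19:6464021-6464270, plus strand) holds 5, from 228 to 60 bases before the start. The CLDN7 window (chr17:7262479-7262728, minus strand) holds 4, from 174 to 9 bases before the start.
CRB3: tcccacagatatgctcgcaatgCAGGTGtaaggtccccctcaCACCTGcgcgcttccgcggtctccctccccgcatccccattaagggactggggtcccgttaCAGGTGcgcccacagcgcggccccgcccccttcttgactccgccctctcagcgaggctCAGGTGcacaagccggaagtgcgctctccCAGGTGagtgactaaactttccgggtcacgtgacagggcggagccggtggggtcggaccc
CLDN7: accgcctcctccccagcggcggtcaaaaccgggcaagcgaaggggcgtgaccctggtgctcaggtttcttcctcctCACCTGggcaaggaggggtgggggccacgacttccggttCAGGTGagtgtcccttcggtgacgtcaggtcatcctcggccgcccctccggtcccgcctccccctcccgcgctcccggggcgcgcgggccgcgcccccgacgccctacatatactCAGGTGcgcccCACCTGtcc
CRB3 was measured at 0.666 and 1.22 FPKM in DMSO and at 0.192 and 0.257 FPKM in SB, below the mean needed for testing. CLDN7 was measured at 74.8 and 69.2 FPKM in DMSO and at 61.1 and 57.7 FPKM in SB (log2 fold change -0.27, limma adjusted p 0.718). A match of letters does not show that a protein was bound.

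Among the factors themselves, ZEB1, ZEB2 and TWIST2 had entries in the table of RefSeq promoters used here. SNAI1, SNAI2 and TWIST1 were not in that table. ZEB1 had 7 start sites, and 2 of these windows held the E-box. The window printed, chosen because it holds 2 (chr10:31318966-31319215, plus strand), has them 242 and 85 bases before the start. The window of ZEB2 (chr2:144520120-144520369, minus strand) is printed beside it because the ZEB genes differed in direction within replicate 2. Neither it nor that of TWIST2 holds these letters.
ZEB1: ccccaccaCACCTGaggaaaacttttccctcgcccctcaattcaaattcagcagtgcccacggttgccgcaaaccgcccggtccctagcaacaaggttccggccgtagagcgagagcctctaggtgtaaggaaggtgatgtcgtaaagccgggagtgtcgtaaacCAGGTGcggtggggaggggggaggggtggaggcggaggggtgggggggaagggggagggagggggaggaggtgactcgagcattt
ZEB2: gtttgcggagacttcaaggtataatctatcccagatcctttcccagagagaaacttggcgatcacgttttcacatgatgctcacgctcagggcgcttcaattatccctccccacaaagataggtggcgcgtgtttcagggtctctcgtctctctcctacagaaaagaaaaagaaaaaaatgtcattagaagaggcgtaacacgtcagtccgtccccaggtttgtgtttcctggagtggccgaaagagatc
Nothing follows from this about the binding of the factors.

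Genes of the mesenchymal state were mostly lower with SB431542. Of 33 listed, 30 were tested and none passed the adjustment with limma. At an unadjusted p under 0.05, 19 were lower and 1 was higher, against 5.16% and 4.8% of all tested genes. Without overlap 23 were lower and 3 higher, against 16% and 21.5%, and the median log2 fold change was -0.61. The count of 19 was 12 without DMSO replicate 1, 12 without DMSO replicate 2, 10 without SB replicate 1 and 11 without SB replicate 2. FN1, which encodes fibronectin, was measured at 236 and 291 FPKM in DMSO and at 56.6 and 64.4 FPKM in SB (log2 fold change -2.10, adjusted p 0.0646). COL1A1, a fibrillar collagen gene, was measured at 107 and 78.5 FPKM in DMSO and at 17.1 and 14.8 FPKM in SB. CDH2, the gene of N-cadherin, was measured at 14.95 and 18.5 FPKM in DMSO and at 9.57 and 11.3 FPKM in SB. VIM, the gene of vimentin, was measured at 913 and 1147 FPKM in DMSO and at 649 and 778 FPKM in SB. The 3 that were higher without overlap were ITGB3 (log2 fold change 0.83), S100A4 (0.64) and NT5E (0.62). ITGB3 was also on the list of hematopoietic markers. N-cadherin and E-cadherin genes were thus both lower with SB431542.

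Readouts of SMAD2/3 signaling were examined because they lie closest to the receptor. Of 22 listed, 21 had a row and 19 were tested, and TGFBI alone passed the adjustment. TGFBI, a matrix gene named for its induction by TGFβ, fell from 29.7 and 31.0 FPKM in DMSO to 4.10 and 4.93 FPKM in SB, a log2 fold change of -2.51 (limma adjusted p 0.0365), a call that was lost with any single library left out (adjusted p from 0.137 to 0.182). SMAD7, the inhibitory SMAD gene, was measured at 29.3 and 19.6 FPKM in DMSO and at 7.23 and 3.40 FPKM in SB, and SKIL at 7.77 and 11.1 FPKM in DMSO and at 2.10 and 2.00 FPKM in SB. At an unadjusted p under 0.05, 9 were lower and 2 were higher (1 higher without DMSO replicate 2, SB replicate 1 or SB replicate 2), and the median was -0.44. Over all tested genes 5.16% were lower and 4.8% were higher at that p. The fold changes of the SNAIL genes, -0.81 and -0.94, were larger in size than the median readout. They were smaller than those of TGFBI, SMAD7 (-2.05) and SKIL (-1.76), the last 2 picked after their values were seen.

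**Figure D4:**
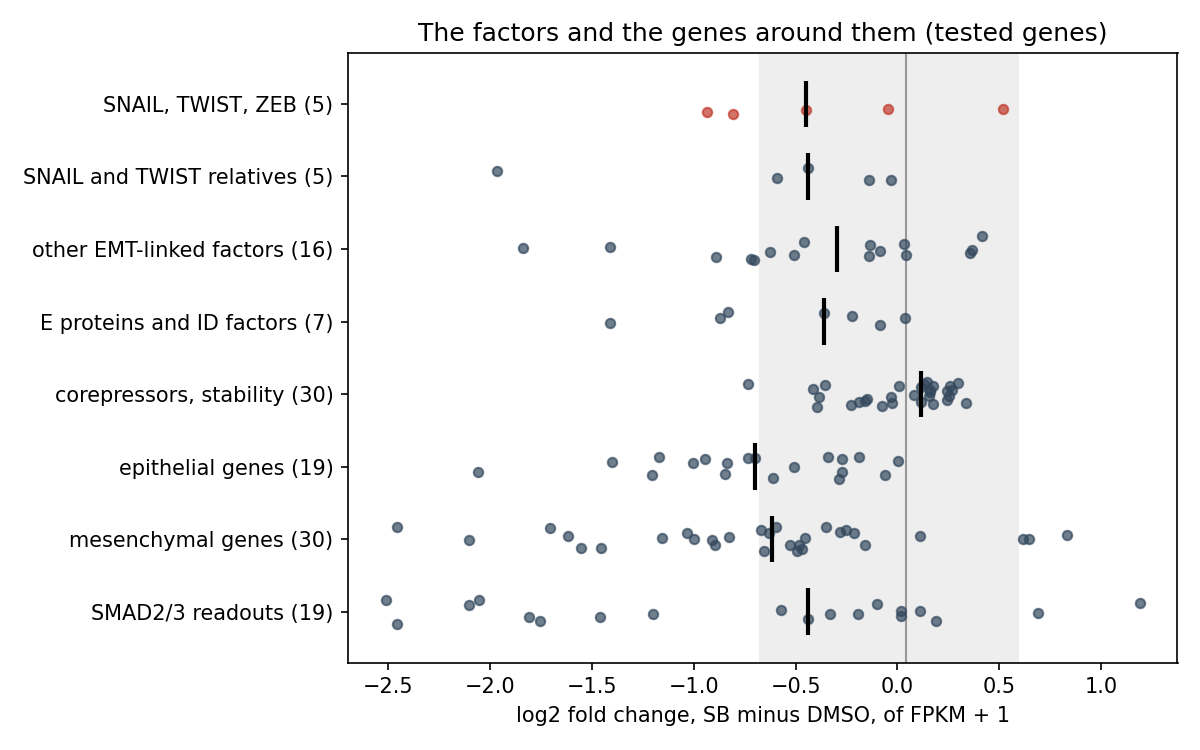
Log2 fold change of FPKM + 1 between SB and DMSO (horizontal) for the tested factors (red) and 7 related gene lists (dark), with 1 point per gene, the number of genes in parentheses and a black bar at the median. The grey band spans percentiles 5 to 95 of all tested genes (-0.67 to 0.59) and the grey line their median (0.04); SNAI1 and SNAI2 lie left of the band, and TWIST1, ZEB1 and ZEB2 lie within it.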

How the data were processed

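RNA of H1-derived cells (2 DMSO and 2 SB libraries, grouped by sample title) was sequenced. The authors deposited FPKM values, 1 row per gene. Per the labels, their processing notes name BWA, Bowtie, RSEM and hg19, without roles. Of the rows, 95.5% had their versioned identifier in GENCODE 29, and 99.8% of these the same position there, so coordinates are on GRCh38 and counted from 1.

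Genes with a mean of at least 1 FPKM in at least 1 group were compared as log2(FPKM + 1) with limma 3.58.1 in R 4.3.3 (empirical Bayes with trend, group as the only term, two-sided, Benjamini-Hochberg over all tested genes, threshold 0.05). The study names Student's t test in general and no gene-wise model. An exact permutation test of 2 against 2 libraries cannot give a p below 0.333. The procedure was tested on simulated data. Depth was estimated from FPKM steps: between 93.4% and 94.8% of genes under 10 fragments lay within 0.1 of a whole number.

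The 6 factors and the related lists were chosen with earlier results of these data known. From each list, up to 4 genes with the smallest unadjusted p and genes bearing on a factor were eligible to be named, and for each tested factor the 3 most alike genes. RUNX1, VIM, CDH2, CRB3, CLDN7, SMAD7, SKIL, KDM1A and the TCF genes were picked from their lists after their values were seen. Alternatives were another pseudocount, other filters, other scalings, no trend, a replicate block, a GC correction and the removal of each library. Promoter sequences are from RefSeq (GRCh38.p14).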

Additional observations from a re-analysis of the deposited data

How the results depend on the processing

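The direction of SNAI1, SNAI2 and ZEB2 held under all 14 alternatives. The sign of TWIST1 turned without DMSO replicate 1 (0.16) and without SB replicate 2 (0.20), and that of ZEB1 without DMSO replicate 2 (0.023). When single libraries were left out, log2 fold changes ranged from -0.94 to -0.67 for SNAI1, from -1.06 to -0.81 for SNAI2, from -1.09 to 0.20 for TWIST1, from -0.12 to 0.023 for ZEB1 and from 0.23 to 0.80 for ZEB2, calls over all genes ranged from 0 to 14, calls among factors stayed at 0 and calls in the related lists were 0. In these fits the lone sample of a group is assumed to vary like the other group. They also set unequal replicate numbers against each other. Other scalings and filters gave no call among the factors. Over all genes 20 calls became 0 with no filter, 31 with quantile normalization and 168 with the GC correction. The 1 call in the related lists became 0 with no filter, 3 with quantile normalization, 2 with upper-quartile scaling, 2 with scaling to the same FPKM sum and 15 with the GC correction. Both fits with a GC correction were chosen after seeing the data.

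The replicate numbers are shared between the groups, but no source says that they pair cultures. Deviations of same-numbered libraries from their group means correlated over tested genes (Pearson's r 0.53, across genes, which are not independent). With the replicate block 1564 genes were called in all, 3 among the factors and 54 in the related lists. The fold changes stayed at -0.81 for SNAI1 (adjusted p 0.0477), -0.94 for SNAI2 (adjusted p 0.0192) and 0.52 for ZEB2 (adjusted p 0.0224). With the GC correction and the replicate block 1871 genes were called, 3 among the factors and 56 in the related lists, with -0.78 for SNAI1 (adjusted p 0.0443), -0.96 for SNAI2 (adjusted p 0.0198) and 0.49 for ZEB2 (adjusted p 0.0258). TWIST1 and ZEB1 were not called in either. The cause of these moves was not tested. With 2 libraries per group the limits are the spread between libraries and, for TWIST2, its level near 0.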
